A study of Mus musculus with 4 samples.

Results

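Interferon-stimulated genes are the genes a cell switches on when an interferon binds its receptors, and 33 of them were followed here across the cell types of the mouse submandibular gland. They were taken by symbol from the deposited count matrices, and 32 of the 33 had a row among 31053 listed genes. Mx2 had none under that symbol and was not analysed here. The members fall into 20 core type I genes (19 with a row), 7 further interferon-stimulated genes grouped here as broad, and 6 genes known for their response to interferon gamma, here called gamma-type. All mice were female C57BL6/J. The 2 deligated libraries came from 14-week-old mice whose main salivary ducts had carried a metal clip for 14 days and had then been released for 5 days. The 2 homeostatic libraries came from 12-week-old mice without surgery, so age and surgery cannot be told apart. Before single-cell sequencing on the 10x platform, cells with the epithelial antigen EpCAM or the red-cell antigen Ter119 had been depleted with beads in all 4 libraries, followed by removal of dead cells. The labels do not say how many animals gave each library, so the p-values measure only the spread between these libraries.

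Type I interferons signal through the receptor made of Ifnar1 and Ifnar2 and activate a transcription complex that includes STAT2 and IRF9 and binds interferon-stimulated response elements. Interferon gamma, made mainly by natural killer (NK) cells and T cells, signals through Ifngr1 and Ifngr2 and activates transcription through gamma-activated sites. Many genes answer to both, so that the division into core and gamma-type members is one of emphasis. Core members include antiviral effectors such as the IFIT proteins, viperin (Rsad2) and the ubiquitin-like modifier ISG15, while the gamma-type members are guanylate-binding proteins (Gbp2, Gbp3, Gbp7) and immunity-related GTPases (Igtp, Irgm1, Ifi47), which act against pathogens inside cells.

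After filtering, the deligated libraries had 4357 and 7823 cells and the homeostatic ones 10615 and 10900, with median depths of 6024, 5158, 2870 and 2702 unique molecular identifiers (UMIs, an estimate of captured RNA molecules) per cell. Fewer than 1000 UMIs were found in 1.68 and 2.31% of deligated against 23.1 and 24.5% of homeostatic cells. Pairs of libraries shared 14 to 54 cell barcodes. Cell types were rebuilt by clustering without the members, and each class is named for its markers (endothelial-like and so on). The 8 endothelial markers summed to 13601 to 14810 CPM in endothelial-like cells of the 4 libraries, where CPM are the UMIs of a gene scaled to a common total for each class and library. Within a class different clusters held the 2 groups: 1 endothelial-like cluster led by Hlx and Aplnr held 1495 and 2610 thinned deligated cells against 11 and 13 homeostatic cells, and another led by Gm20532 and Dlg2 held 2883 and 2889 homeostatic cells. NK/innate lymphoid-like, T cell-like and fibroblast-like cells were split in the same way. The count files were written by Cell Ranger 6.0.1 for the deligated and 7.0.0 for the homeostatic libraries, per the file headers, so the software version and the group cannot be told apart either.

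The start regions of the members were searched for these response elements, and 6 of them are printed here because they stand for the core (Isg15, Ifit1, Rsad2), broad (Bst2) and gamma-type (Igtp, Gbp7) members that the values turn on. Each run ends at the base before the annotated start, except that of Ifit1, which ends at position -19 from it, ahead of an exon annotated there, and all are read 5′ to 3′ on the gene's strand, from RefSeq on GRCm38.p6. Capitals mark matches to the interferon-stimulated response element, searched on both strands as GAAA, any 2 bases and GAAA again (TTTC, any 2 bases and TTTC when read from the other strand), and to the gamma-activated site, searched as TTCNNNGAA, which reads the same on both strands. Where matches overlap, 1 run of capitals covers them all. The windows lie at chr4:156200819-156200978 (- strand) for Isg15, chr19:34640729-34640870 (+ strand) for Ifit1, chr12:26456453-26456612 (- strand) for Rsad2, chr8:71537473-71537632 (- strand) for Bst2, chr11:58199396-58199555 (+ strand) for Igtp and chr3:142530176-142530335 (+ strand) for Gbp7, each upstream of the gene's first exon.
Isg15: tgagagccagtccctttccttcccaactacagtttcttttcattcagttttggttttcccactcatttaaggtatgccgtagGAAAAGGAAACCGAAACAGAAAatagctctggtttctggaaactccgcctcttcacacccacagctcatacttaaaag
Ifit1: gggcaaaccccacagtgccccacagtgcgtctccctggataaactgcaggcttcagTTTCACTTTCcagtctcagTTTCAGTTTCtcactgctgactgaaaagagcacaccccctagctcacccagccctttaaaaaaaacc
Rsad2: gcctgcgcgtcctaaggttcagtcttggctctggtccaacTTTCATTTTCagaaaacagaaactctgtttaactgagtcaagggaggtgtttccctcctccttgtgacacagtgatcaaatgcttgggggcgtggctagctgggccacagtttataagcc
Bst2: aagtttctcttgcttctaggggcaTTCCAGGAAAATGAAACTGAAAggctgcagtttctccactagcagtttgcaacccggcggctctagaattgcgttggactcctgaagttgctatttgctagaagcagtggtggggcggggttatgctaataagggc
Igtp: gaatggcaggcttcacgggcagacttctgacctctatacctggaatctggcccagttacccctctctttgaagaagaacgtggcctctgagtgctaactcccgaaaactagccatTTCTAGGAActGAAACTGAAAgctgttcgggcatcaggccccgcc
Gbp7: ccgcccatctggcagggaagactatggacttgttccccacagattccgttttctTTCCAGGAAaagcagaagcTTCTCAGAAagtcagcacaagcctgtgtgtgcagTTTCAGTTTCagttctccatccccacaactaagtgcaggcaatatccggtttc

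In these windows Isg15 held 3 overlapping matches to the response element, Ifit1 held 2 apart from each other and Rsad2 held 1. Bst2, Igtp and Gbp7 held matches to both motifs. Of the 33 members, 25 had a start region in the table, which spans 250 bases before to 50 bases after each start. The response element was found in 15 of the 25 (60%), against 3.99% of 27025 genes, and the gamma-activated site in 6 of 25 (24%), against 9.55%. By list, the response element was present in 7 of 15 core, 3 of 4 broad and 5 of 6 gamma-type members, and the gamma-activated site in 2 core, 2 broad and 2 gamma-type members. Neither motif was found for Cmpk2, Herc6, Ifi44, Ifi47, Irf7, Oasl1, Oasl2 and Xaf1. A match describes letters in this window and is not a measured binding site. The members without an entry were Mx1, Mx2, Usp18, Rtp4, Zbp1, Ifi27l2a, Ly6e and Parp14.

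Among the classes with over 100 cells in every library, endothelial-like cells carried the module most often, in homeostatic and deligated glands alike. A core carrier is a cell with a UMI of at least 2 core members after every cell was thinned at random to 1000 UMIs, with shallower cells left out, and a gamma carrier is defined in the same way on the 6 gamma-type members. Among endothelial-like cells, core carriers made up 42.0 and 53.3% of deligated against 43.2 and 41.6% of homeostatic cells. The 95% Clopper-Pearson intervals, which cover counting error only, were 39.7 to 44.3% and 51.5 to 55.1% for deligated replicates 1 and 2, and 41.6 to 44.9% and 39.9 to 43.2% for homeostatic replicates 1 and 2. Deligated replicate 2 stood above the other 3 libraries, and deligated replicate 1 lay between the homeostatic ones. Without thinning, the shares were 87.4 and 89.3% of deligated against 83.0 and 82.6% of homeostatic cells.

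The other classes of that size carried the core members less often, and smaller classes varied. Among fibroblast-like cells, core carriers made up 10.8 and 17.7% of deligated against 12 and 15.0% of homeostatic cells. In macrophage-like cells the shares were 10.7 and 21.3% of deligated against 18.1 and 19.7% of homeostatic cells, and the deligated values rest on 28 and 75 cells. Among Schwann-like cells, with 24 to 62 cells a library, they were 8.33 and 27.4% of deligated against 30.8 and 25.7% of homeostatic cells, above the macrophage-like share in 3 of the 4 libraries. T cell-like cells stood at 8.63 and 9.94% of deligated against 11.05 and 9.15% of homeostatic cells, and NK/innate lymphoid-like cells at 3.83 and 4.66% of deligated against 5.25 and 5.05% of homeostatic cells. Epithelial-like cells, the class the beads had depleted, gave 3.45 and 13.1% of deligated against 4.73 and 3.89% of homeostatic cells, on 29 and 61 deligated and 1289 and 1361 homeostatic cells, and how much of their share and of the NK/innate lymphoid-like one is free RNA of the droplets was not tested. Mural-like cells, the pericytes and smooth muscle cells of vessel walls, gave 6.29 and 6.08% of deligated against 9.40 and 10.0% of homeostatic cells. Over all retained cells, which are mixed differently in the 2 groups, the shares were 22.04 and 26.9% of deligated against 24.2 and 22.7% of homeostatic cells. The small erythroid-like class, led by haemoglobin genes and holding 20 to 91 thinned cells a library, gave 30 and 35.2% of deligated against 46.2 and 33.9% of homeostatic cells, with Rsad2 at 909 and 810.2 CPM in deligated against 541 and 369.9 CPM in homeostatic libraries. How much of the erythroid-like share came from RNA of other cells was not tested. It is not read here as expression in red cells. Shares of different classes are set side by side here without a test.

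Gamma carriers need 2 of 6 listed genes and core carriers 2 of 19, so the shares of the lists are not on 1 scale. Among endothelial-like cells, gamma carriers made up 13.5 and 31.1% of deligated against 14.7 and 15.2% of homeostatic cells, and deligated replicate 2 stood far above the other 3 libraries. In fibroblast-like cells they made up 3.61 and 4.25% of deligated against 6.0 and 3.16% of homeostatic cells, and in T cell-like cells 2.88 and 4.40% of deligated against 3.49 and 1.83% of homeostatic cells. NK/innate lymphoid-like cells were the only tested class in which both deligated libraries lay above both homeostatic ones, with 3.27 and 2.50% of deligated against 1.09 and 1.31% of homeostatic cells. Epithelial-like cells, at the same 1000 UMIs, gave 0 of 29, 0 of 61, 0 of 1289 and 2 of 1361 cells in the order deligated 1, deligated 2, homeostatic 1 and homeostatic 2, and serve here as the background. Taking 3 cells as the limit of a count of 0, 0 in 1289 cells allows a share of up to 0.233% and 0 in 61 cells up to 4.92%, and the upper ends of the Clopper-Pearson intervals were 0.286 and 5.87%. Of the classes too small to test, macrophage-like cells were gamma carriers in 3.57 and 2.67% of deligated against 1.12 and 1.86% of homeostatic cells, and mural-like cells in 0.943 and 2.03% of deligated against 0 and 0% of homeostatic cells. Both deligated libraries lay above both homeostatic ones there too, but on 1 to 9 deligated carriers a library, and the 0 of 117 and 0 of 70 homeostatic mural-like cells allow shares of up to 2.56 and 4.29%. Schwann-like cells gave 4.17 and 20.97% of deligated against 12.8 and 2.86% of homeostatic cells, and erythroid-like cells 0 and 20.9% of deligated against 12.3 and 12.5% of homeostatic cells, where 0 of 20 cells allows up to 15%. In these 2 small classes deligated replicate 2 was the highest library.

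**Figure D1:**
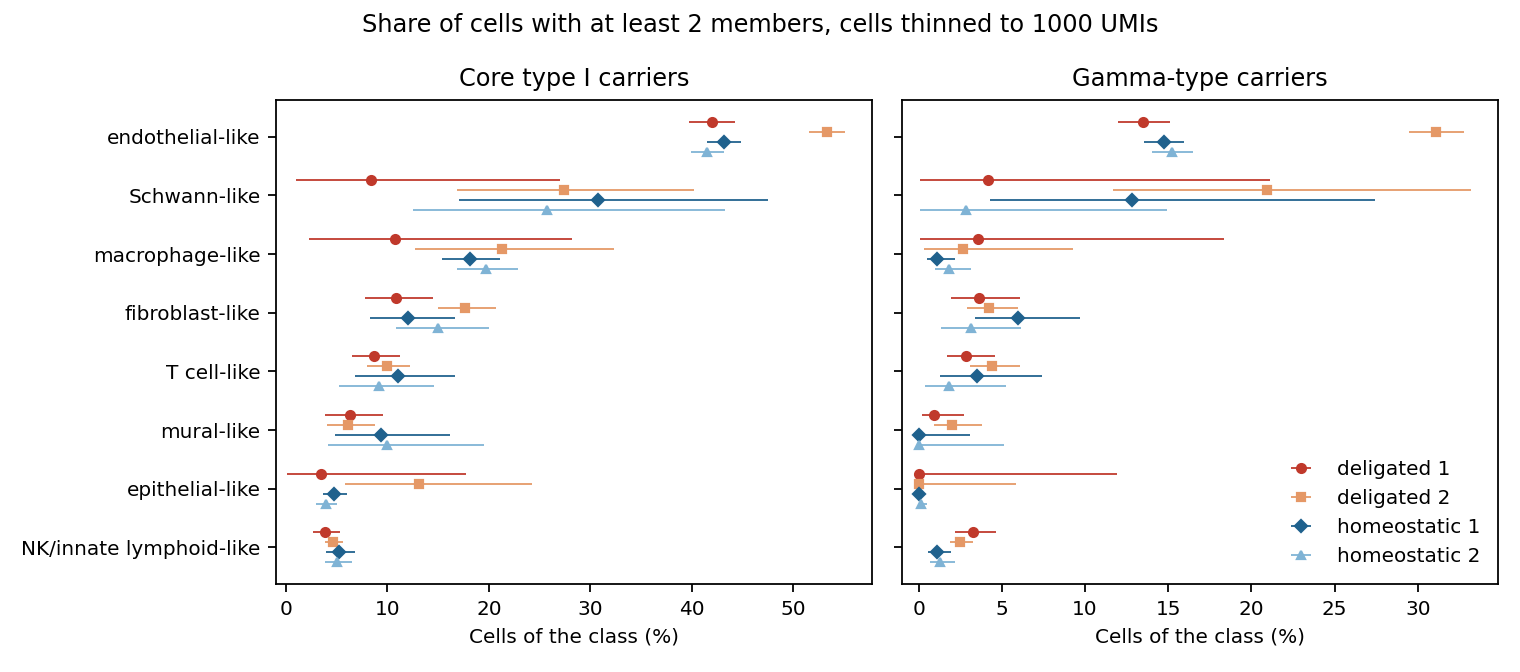
Share of cells (x axis, %) of each drawn class (y axis) that carried at least 2 core type I members (left) or at least 2 gamma-type members (right) after thinning to 1000 UMIs. The erythroid-like, B cell and unnamed cells are not drawn. Each point is 1 library with its 95% Clopper-Pearson interval. Endothelial-like cells lie at 41.6 to 53.3% for core members, and deligated replicate 2 lies apart at 31.1% for gamma-type members.

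Within the endothelial-like class, single members were seen in very different shares of cells. Rsad2, which encodes viperin, an enzyme that blocks viral replication, was detected at 1000 UMIs in 47.3 and 53.9% of deligated against 37.9 and 36.5% of homeostatic cells. A cell with Rsad2 needed only another core member to count as a core carrier, so the carrier share leans on this gene. In the epithelial-like class Rsad2 was detected in 0 and 1.64% of deligated against 0.931 and 0.367% of homeostatic cells. Isg15, whose product is coupled to other proteins, was detected in 14.3 and 18.2% of deligated against 17.6 and 17.2% of homeostatic cells. Ifit1, which binds foreign RNA, was detected in 6.98 and 9.35% of deligated against 7.73 and 7.98% of homeostatic cells. Ly6e, a membrane protein anchored by lipid, and Bst2, which tethers budding viruses, belong to the broad list and were present at 1740 to 2113 and 542 to 781 CPM in the deligated libraries.

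Endothelial-like cells that held Ifit1 also held other core members more often than cells without it, measured at 1000 UMIs in each library. The exception was Mx1 in deligated replicate 1, seen in 0 of 130 cells with Ifit1 against 2 of 1732 without. Over the 4 libraries, the median ratio of the share with a member among Ifit1-positive cells to that among Ifit1-negative cells was 5.25 for Oasl1, 4.68 for Ifit3b, 4.21 for Oas1a, 3.87 for Ifit3, 3.53 for Usp18 and 3.10 for Isg15. The value of Oas1a rests on 2 to 11 cells a library that held both genes, and its ratios ran from 1.55 to 5.52. Oasl1 is a regulator of Irf7 translation, and Usp18 removes ISG15 from proteins and dampens the type I receptor. Reads of Ifit3 and Ifit3b, near-identical copies, may have been split between them, so their separate values are uncertain. Gamma-type members had median ratios from 1.45 for Gbp2 to 2.16 for Igtp, a range that also held the core members Xaf1 (1.46), Rtp4 (1.81) and Ifih1 (1.95). Rsad2 stood at 1.33, Bst2 at 1.29 and Ly6e at 1.08. These 3 were found in 34.7 to 52.7%, 36.2 to 51.1% and 75.3 to 84.9% of cells without Ifit1, which limits how high their ratio can be. Ifi27l2a had a median ratio of 1.10 though it was found in only 1.10 to 5.46% of cells without Ifit1. Its ratios ran from 0.882 to 2.80. Stat2 and Ifi35 stood at 1.39 and 1.44. These ratios describe cells of a shared library and carry no test.

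**Figure D2:**
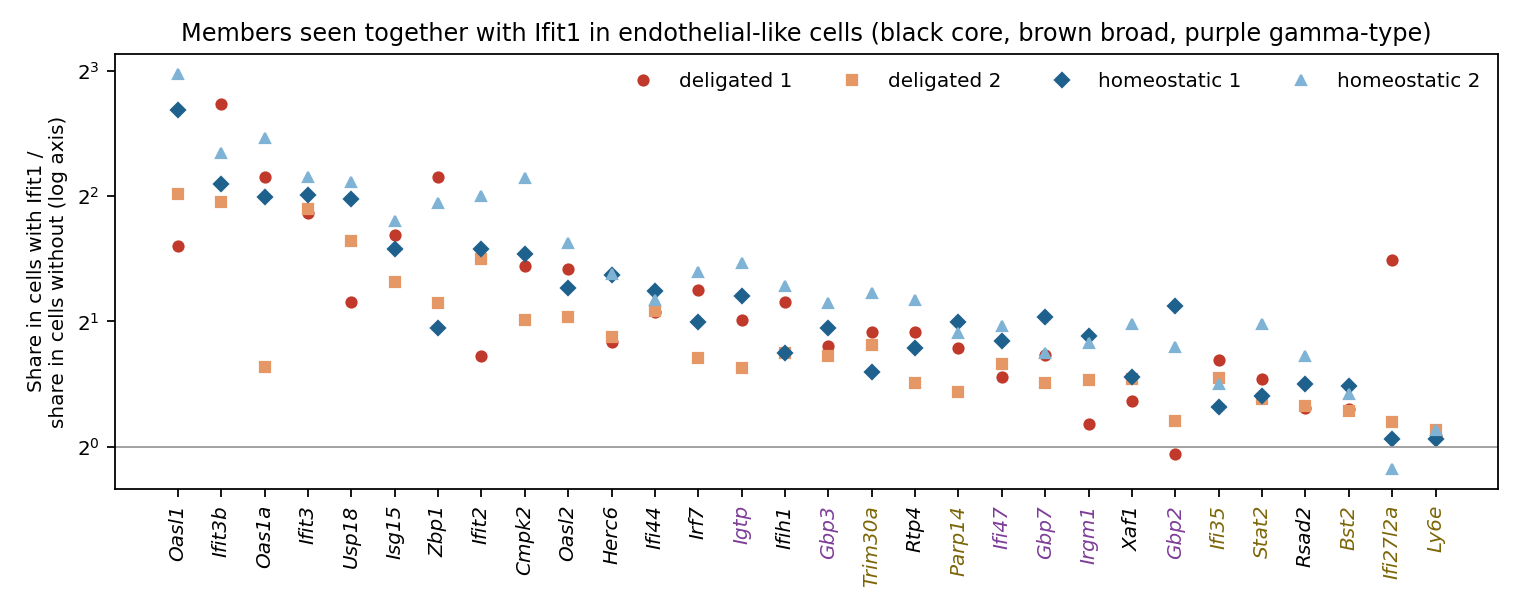
Ratio of the share of endothelial-like cells with a member among cells with an Ifit1 UMI to the share among cells without (y axis, log scale), for each member (x axis, ordered by median) and library, at 1000 UMIs. Mx1, with few positive cells, is not drawn. Oasl1, Ifit3b, Oas1a and Ifit3 lie highest, and Rsad2, Bst2 and Ly6e lie near 1.

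Most endothelial-like cells held at least 1 core member, and a small share held many. Cells with a UMI of 5 or more core members made up 5.05 and 8.08% in the deligated and 7.03 and 7.39% in the homeostatic libraries, and cells with none made up 24.4, 16.6, 25.4 and 26.4%. Gamma carriers were 17.9, 39.3, 20.98 and 21.96% of core carriers in the order deligated 1, deligated 2, homeostatic 1 and homeostatic 2. Among the other endothelial-like cells they were 10.3, 21.7, 9.98 and 10.4%. In each library gamma carriers were thus more frequent among core carriers than among other cells, and most core carriers were not gamma carriers.

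Endothelial-like clusters differed in their core share within a library, given here as values. In the cluster led by Selp and Vwf, genes of venous endothelium, core carriers made up 28.7 and 34.6% of deligated and 17.6 and 14.8% of homeostatic cells. In the deligated cluster led by Sema3g and Cldn5, they made up 31.2 and 42.5%. The main deligated cluster, led by Hlx and Aplnr, had 44.9 and 55.7%, and the main homeostatic cluster had 44.2 and 42.6%. The cluster led by Selp and Vwf was the only endothelial-like one with over 50 thinned cells in every library.

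Between deligated and homeostatic glands, the endothelial-like class did not shift as a block. Of 32 members tested with edgeR's quasi-likelihood test on UMI sums, 1 rose and 5 fell at an adjusted p under 0.05, against 35.2% of 13170 genes called in this class, 12.8% higher and 22.4% lower. The median log2 fold change was -0.05 over the 32 members and -0.0004 over all genes. Summed core members stood at 2121 and 2742 CPM in deligated against 2202 and 2166 CPM in homeostatic libraries, which is 2432 ± 440 (SD, n = 2) against 2184 ± 25.4 CPM (SD, n = 2). The ranges of the groups overlapped. Rsad2, given next, made up a large part of these sums and was higher in both deligated libraries, so the sums lean on that gene.

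Rsad2 stood at 923 and 1081 CPM in deligated against 603 and 576 CPM in homeostatic libraries. Both deligated libraries lay above both homeostatic ones, and Rsad2 was the only member that rose (log2 0.78, SE 0.092, edgeR adjusted p = 0.00143). Herc6, an E3 ligase of the ISG15 pathway in mice, stood at 60.8 and 79.9 CPM in deligated against 135 and 136 CPM in homeostatic libraries and fell (log2 -0.93, SE 0.11, edgeR adjusted p = 0.00169). Ifi27l2a, a small mitochondrial and membrane protein gene, stood at 23.6 and 30.7 CPM in deligated against 49.9 and 52.9 CPM in homeostatic libraries and also fell (log2 -0.90, SE 0.12, edgeR adjusted p = 0.00202). These 3 calls held in every alternative that was run.

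Oasl1 was measured at 13.5 and 18.5 CPM in deligated against 22.2 and 24.4 CPM in homeostatic libraries (log2 -0.53, SE 0.14, edgeR adjusted p = 0.0323). Ifi35, a binding partner of the interferon-induced protein Nmi, was measured at 117 and 159 CPM in deligated against 193 and 196 CPM in homeostatic libraries (log2 -0.48, SE 0.13, edgeR adjusted p = 0.0287). Usp18 gave 27.3 and 33.8 CPM in deligated against 41.2 and 38.2 CPM in homeostatic libraries (log2 -0.36, SE 0.10, edgeR adjusted p = 0.0389). In all 3 the groups did not overlap, and how often this holds for all called genes is not given here. Without a library the count of 6 members moved to 3 (either homeostatic library), 21 (deligated replicate 1) and 24 (deligated replicate 2), while the share of all genes called moved to 13.6 and 14.0% without homeostatic replicate 1 and 2 and to 54.99 and 54.4% without deligated replicate 1 and 2. These 3 calls were lost without either homeostatic library, when 1 library was assumed to vary like the other group. Adjusted p then was 0.0892 and 0.196 for Oasl1, 0.153 and 0.183 for Ifi35, and 0.294 and 0.179 for Usp18 (edgeR, without homeostatic replicate 1 and 2). The log2 fold change of Ifi35 was -0.31 without deligated replicate 1. When cells were thinned to 1000 UMIs, Oasl1 was at log2 0.0052 and Usp18 at -0.20 (edgeR adjusted p = 0.387). With DESeq2 Oasl1 (0.0576) and Usp18 (0.112) did not pass, and Usp18 did not pass with the replicate number as a block (0.0543) or with the intron trend removed (0.0583). Genes on the other strand overlap Oasl1, Ifi35 and Usp18, and strand use in counting is not stated, so their counts are uncertain.

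The other core and broad members did not pass the test in endothelial-like cells. Among them, Cmpk2, Ifi44, Rtp4, Zbp1 and Parp14 had log2 fold changes of 0.062 to 0.47, and Ifih1, Ifit2, Ifit3b, Mx1, Oas1a, Oasl2, Xaf1 and Trim30a of -0.60 to -0.030, with edgeR adjusted p from 0.0779 to 0.787. Isg15 stood at 182 and 243 CPM in deligated against 241 and 247 CPM in homeostatic libraries (log2 -0.19, SE 0.12, edgeR adjusted p = 0.270), and its log2 fold change was -0.032 without deligated replicate 1 and -0.34 without replicate 2, where it passed (edgeR adjusted p = 2.87e-06). Ifit1 stood at 69.9 and 111 CPM in deligated against 108 and 104 CPM in homeostatic libraries and Ifit3 at 78.2 and 128 CPM in deligated against 122 and 122 CPM in homeostatic libraries, where deligated replicate 1 was the lowest of the 4 libraries and replicate 2 lay at the homeostatic level or just above. The log2 fold changes were -0.21 for Ifit1 (edgeR adjusted p = 0.388) and -0.24 for Ifit3 (edgeR adjusted p = 0.365), and without deligated replicate 1 they were 0.048 and 0.040. Irf7, the factor that amplifies type I responses, stood at 105 and 150.0 CPM in deligated against 108 and 108 CPM in homeostatic libraries (log2 0.26, SE 0.14, edgeR adjusted p = 0.206), with a log2 fold change of 0.046 without deligated replicate 2 and 0.45 without replicate 1, where it passed (edgeR adjusted p = 1.32e-07). Stat2, a part of the type I transcription complex, stood at 69.1 and 95.8 CPM in deligated against 89.2 and 82.9 CPM in homeostatic libraries (log2 -0.046, SE 0.13, edgeR adjusted p = 0.811). Bst2 at 542 and 781 CPM in deligated against 918 and 870.4 CPM in homeostatic libraries and Ly6e at 1739.8 and 2113 CPM in deligated against 1598 and 1555 CPM in homeostatic libraries had groups that did not overlap, in opposite directions, with edgeR adjusted p of 0.0685 and 0.0565.

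**Figure D3:**
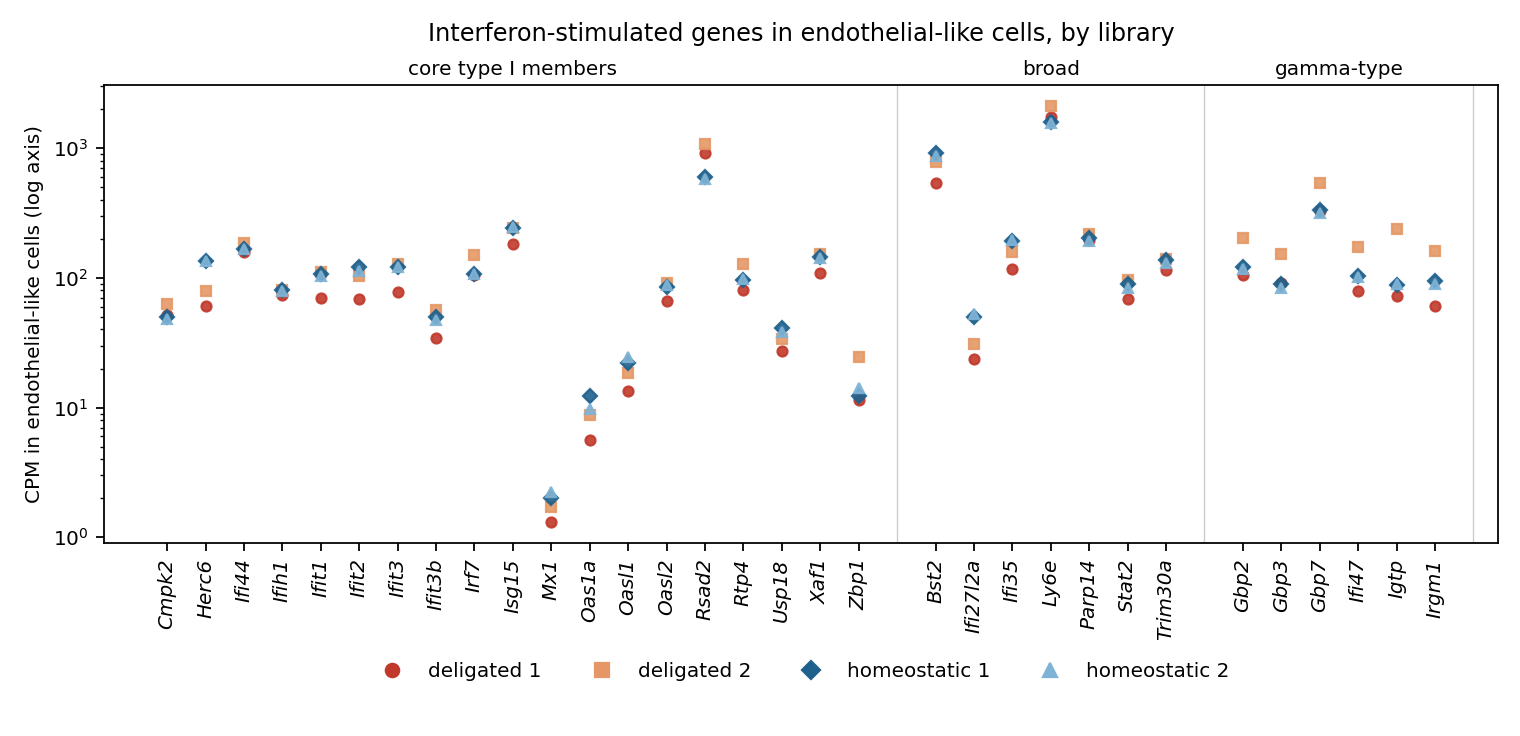
CPM in endothelial-like cells (y axis, log scale) of each member (x axis, alphabetical within its list), with 1 point for each library. The libraries lie close together for most core members, Rsad2 lies higher in both deligated libraries, and deligated replicate 2 stands apart in all 6 gamma-type members.

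The 6 gamma-type members all had a log2 fold change above 0 in endothelial-like cells and none passed the edgeR test, with 1 of 6 at an unadjusted p under 0.05 (46.4% of all genes) and 1 of 6, Gbp3, called by DESeq2 (26.2% of all genes). Their median log2 fold change was 0.41. The summed level was 740.5 and 1465 CPM in deligated against 829 and 798 CPM in homeostatic libraries, so that deligated replicate 1 was the lowest and deligated replicate 2 the highest library. Igtp, an immunity-related GTPase, stood at 72.2 and 237 CPM in deligated against 88.8 and 89.6 CPM in homeostatic libraries (log2 0.79, SE 0.46, edgeR adjusted p = 0.221). Irgm1, a regulator of these GTPases, stood at 60.3 and 162 CPM in deligated against 95.3 and 90.2 CPM in homeostatic libraries (log2 0.26, SE 0.38, edgeR adjusted p = 0.619). Gbp2 stood at 106 and 205 CPM in deligated against 121 and 117 CPM in homeostatic libraries (log2 0.39, SE 0.25, edgeR adjusted p = 0.267). Without deligated replicate 2 the log2 fold changes turned to -0.22 for Igtp, -0.54 for Irgm1 and -0.079 for Gbp2. Without deligated replicate 1 they were 1.39, 0.78 and 0.76. Igtp overlaps Irgm2, and Ifi47 overlaps Olfr56, on the same strand, so their counts are uncertain.

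Inside the deligated group, the endothelial-like libraries stood further apart in gamma-type than in core members. Ratios were taken for genes with at least 10 UMIs in every library. The ratio of deligated replicate 2 to replicate 1 in endothelial-like CPM ran from 1.62 to 3.28 with a median of 2.06 over the 6 gamma-type members. Over the 19 core members it ran from 1.10 to 2.15 (median 1.38), and over the 7 broad members from 1.10 to 1.44 (median 1.30). Another 18 gamma-type targets, not among the members, gave a median of 2.14 and a range of 1.36 to 8.76. Their list was chosen with earlier results of these data in view, so it is no independent check. The corresponding ratio of the homeostatic libraries had medians of 0.961 for gamma-type, 0.998 for core and 0.953 for broad members. In fibroblast-like cells the deligated median was 1.58 for the gamma-type and 1.40 for the core members, and in T cell-like cells 1.38 and 1.49. In NK/innate lymphoid-like cells it was 1.09 for both. Endothelial-like sums of deligated replicate 2 also held more RNA of NK markers: their 9 markers summed to 12.1 and 87.2 CPM in the deligated and 20.9 and 18.1 CPM in the homeostatic libraries, and none was at 0. In the same order, the 8 T cell markers summed to 8.27, 22.4, 5.01 and 2.73 CPM and the 8 fibroblast markers to 39.6, 119, 10.9 and 10.98 CPM, with none at 0. Their part in the gamma-type levels was not tested. The same gamma-type members summed to 295 and 293 CPM in deligated against 231 and 239.8 CPM in homeostatic libraries in NK/innate lymphoid-like cells themselves, below the endothelial-like level in each library.

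**Figure D4:**
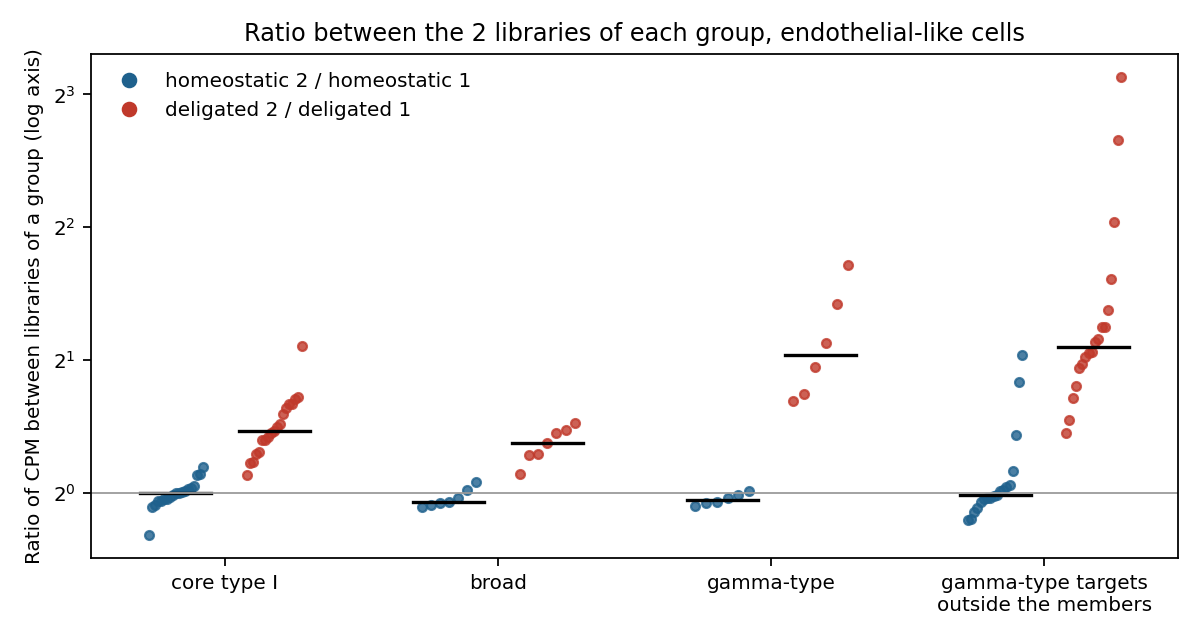
Ratio of CPM between the 2 libraries of a group in endothelial-like cells (y axis, log scale) for core, broad and gamma-type members and for gamma-type targets outside the members; each point is a gene and each bar the median. Homeostatic ratios lie around 1, and deligated ratios have medians of 1.38, 1.30, 2.06 and 2.14.

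In NK/innate lymphoid-like cells 7 members rose and 3 fell among 32 tested, against 44.4% of 11610 genes called, 17.4% higher and 27.0% lower. The median log2 fold change was 0.23 over the members and 0.02 over all genes. Of the core members, Ifi44, an interferon-induced GTP-binding protein gene, stood at 10.6 and 11.5 CPM in deligated against 4.37 and 6.19 CPM in homeostatic libraries and passed as higher (log2 1.16, SE 0.23, edgeR adjusted p = 0.00404). Rsad2 stood at 11.5 and 11.6 CPM in deligated against 7.72 and 7.98 CPM in homeostatic libraries and also passed as higher (log2 0.64, SE 0.18, edgeR adjusted p = 0.0187). Irf7 at 44.1 and 44.9 against 29.7 and 32.2 CPM and Isg15 at 50.9 and 58.2 against 36.4 and 42.3 CPM passed as higher by log2 0.62 and 0.57 (edgeR adjusted p = 0.00228 and 0.00509). All 4 were rare in these cells at 1000 UMIs and are set here beside the epithelial-like class. Ifi44 was detected in 0.450 and 1.15% of deligated against 0.297 and 0.561% of homeostatic cells of the NK/innate lymphoid-like class and in 3.45 and 6.56% of deligated against 2.02 and 1.18% of homeostatic cells of the epithelial-like one. For Rsad2 the shares were 0.901 and 0.912% of deligated against 0.594 and 0.655% of homeostatic cells, beside the 0 to 1.64% of epithelial-like cells given earlier. Irf7 was detected in 4.39 and 4.85% of deligated against 3.17 and 3.55% of homeostatic cells, and in 3.45 to 6.56% of epithelial-like cells, lower only in deligated replicate 1. Isg15 was detected in 3.49 and 4.18% of deligated against 2.97 and 2.62% of homeostatic cells, while epithelial-like cells held it in 3.45 and 8.20% of deligated against 7.37 and 5.29% of homeostatic cells. None of the 4 was above the epithelial-like share in every library. The deligated epithelial-like shares rest on only 29 and 61 cells. Whether that class expresses these genes itself was not tested, so it cannot set their background. These 4 calls are given as differences of class sums, and how much of them is free RNA was not tested. The broad member Ly6e rose by log2 0.53 (edgeR adjusted p = 0.000970), with 668 and 729.9 against 533 and 499 CPM.

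Both gamma-type calls of these cells were higher: Igtp stood at 18.4 and 21.7 CPM in deligated against 10.1 and 15.0 CPM in homeostatic libraries (log2 0.78, SE 0.20, edgeR adjusted p = 0.0156), and Ifi47 at 123 and 124 CPM in deligated against 92.6 and 92.2 CPM in homeostatic libraries (log2 0.51, SE 0.085, edgeR adjusted p = 0.00179). The 3 that fell were Ifi27l2a, at 13.1 and 17.2 CPM in deligated against 37.7 and 41.4 CPM in homeostatic libraries (log2 -1.26, SE 0.14, edgeR adjusted p = 0.000207), Herc6, at 38.1 and 40.8 against 68.0 and 66.5 CPM (log2 -0.67, SE 0.094, edgeR adjusted p = 0.000688), and Usp18, at 15.7 and 12.8 against 21.8 and 24.8 CPM (log2 -0.65, SE 0.17, edgeR adjusted p = 0.0155). How often all called genes had separated groups is not given here. In all 10 of these calls the deligated libraries lay on 1 side of both homeostatic libraries. The count depended on the libraries: it was 3 without homeostatic replicate 1, where 20.4% of all genes were called, and 18 without deligated replicate 1, where 55.7% were. Without homeostatic replicate 1, edgeR adjusted p was 0.0584 for Ifi44, 0.105 for Isg15, 0.0577 for Usp18, 0.0624 for Irf7, 0.0553 for Ifi47, 0.157 for Igtp (log2 0.49) and 0.151 for Rsad2. Without homeostatic replicate 2, Usp18 (0.165) and Rsad2 (0.104) did not pass, and Usp18 was at log2 -0.42 without deligated replicate 2. Ifi27l2a held its call in every alternative that was run, whereas each of the other 9 was lost under at least 1. After thinning to 1000 UMIs Herc6 (edgeR adjusted p = 0.240), Igtp (0.110) and Usp18 (0.203) did not pass, and with DESeq2 Usp18 (0.0723) and Rsad2 (0.163) did not. With the trend of fold change over intron length removed, Isg15 moved to log2 0.16 (edgeR adjusted p = 0.332) and Ly6e to 0.17 (0.142), and Igtp (0.0750) and Rsad2 (0.0749) did not pass. Herc6 and Irf7 lost both their calls and their direction, as given below.

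In fibroblast-like cells 4 members rose and 1 fell among 32 tested, against 26.1% of 11403 genes called, 8.55% higher and 17.5% lower. Their median log2 fold change was -0.10, and that of all genes 0.01. Ifi27l2a stood at 567 and 517 CPM in deligated against 311 and 364 CPM in homeostatic libraries and rose (log2 0.75, SE 0.14, edgeR adjusted p = 0.00364), the opposite direction to endothelial-like and NK/innate lymphoid-like cells. Ifi44 stood at 26.2 and 30.8 CPM in deligated against 18.4 and 12.3 CPM in homeostatic libraries and passed as higher (log2 0.95, SE 0.23, edgeR adjusted p = 0.0138), but not with DESeq2 (adjusted p = 0.0675). At 1000 UMIs it was detected in 1.67 and 3.16% of deligated against 2.80 and 0.395% of homeostatic cells, which is below the epithelial-like share given above in 3 of the 4 libraries, and how much of it is free RNA was not tested. Irf7 stood at 67.1 and 76.8 CPM in deligated against 47.3 and 45.1 CPM in homeostatic libraries and rose (log2 0.70, SE 0.15, edgeR adjusted p = 0.00785), and with thinned sums it was at log2 0.27 (edgeR adjusted p = 0.704). The gamma-type member Gbp3 stood at 38.8 and 48.4 CPM in deligated against 32.3 and 27.5 CPM in homeostatic libraries and rose (log2 0.61, SE 0.18, edgeR adjusted p = 0.0338).

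Herc6 was the member that fell in fibroblast-like cells, with 19.5 and 26.6 CPM in deligated against 55.9 and 41.6 CPM in homeostatic libraries (log2 -1.01, SE 0.20, edgeR adjusted p = 0.00574). The count was 1 without homeostatic replicate 1, 3 without homeostatic replicate 2, and 12 and 17 without deligated replicate 1 and 2, where 11.96, 12.8, 39.6 and 37.0% of all genes were called. Each of the 5 calls was lost under at least 1 alternative. Without homeostatic replicate 1 Ifi27l2a was at log2 0.62 (edgeR adjusted p = 0.116), Irf7 at 0.71 (0.0965), Gbp3 at 0.70 (0.132) and Herc6 at -0.81 (0.0761), and without homeostatic replicate 2 Ifi44 was at 0.70 (0.137), with Irf7 (0.0984) and Gbp3 (0.250) also past the threshold no longer. Gbp3 did not pass with DESeq2 (0.172), thinned sums (0.157), the stricter cell filter (0.0837) or the intron trend removed (0.130), Herc6 with thinned sums (0.106) and Ifi27l2a with the intron trend removed (log2 0.38, 0.0920).

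T cell-like cells, with 172 and 164 homeostatic cells, had 2 calls among 31 tested members, against 18.5% of 9816 genes, 4.72% higher and 13.8% lower. Ly6e stood at 797 and 996 CPM in deligated against 706 and 735 CPM in homeostatic libraries and rose (log2 0.45, SE 0.13, edgeR adjusted p = 0.0451). Herc6 stood at 43.2 and 43.6 CPM in deligated against 82.2 and 70.1 CPM in homeostatic libraries and fell (log2 -0.67, SE 0.17, edgeR adjusted p = 0.0331). The median log2 fold change of the members was 0.24, with 21 of 31 above 0, and 0.03 over all genes. Ifit3 at 31.8 and 69.0 CPM in deligated against 20.5 and 32.4 CPM in homeostatic libraries had the highest log2 fold change of the members there but did not pass (log2 1.08, SE 0.41, edgeR adjusted p = 0.114), and deligated replicate 1 lay just below homeostatic replicate 2. The count was 11 without deligated replicate 1, where 22.7% of all genes were called. Both calls were lost without either homeostatic library, with edgeR adjusted p of 0.289 and 0.206 for Ly6e and 0.257 and 0.133 for Herc6, and Ly6e also without deligated replicate 2 (0.0533). Neither passed with DESeq2 (0.124 for Ly6e and 0.219 for Herc6) or with thinned sums (0.0552 and 0.192). Herc6 was also lost at clustering resolution 2.0 (0.0577) and with the replicate number as a block (0.0515), and Ly6e with the intron trend removed (log2 0.13).

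Herc6 was lower in deligated libraries in all 4 tested classes. Its annotated introns total 74.3 kb, the second longest of the members after Rtp4 with 91.8 kb. When the trend of log2 fold change with total intron length over all genes was taken out, its log2 fold change was -0.56 in endothelial-like (edgeR adjusted p = 0.0131), -0.56 in fibroblast-like (0.0943), 0.0043 in NK/innate lymphoid-like (0.977) and 0.021 in T cell-like cells (0.964). Irf7, with no base outside its annotated exons, moved to -0.0097 in NK/innate lymphoid-like and 0.26 in fibroblast-like cells, where it no longer passed. In endothelial-like cells, where it had not passed before, Irf7 turned negative, as given in the closing section. Irf7 also overlaps Phrf1 on the other strand. Whether reads in introns were counted is not given in the sources used here.

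**Figure D5:**
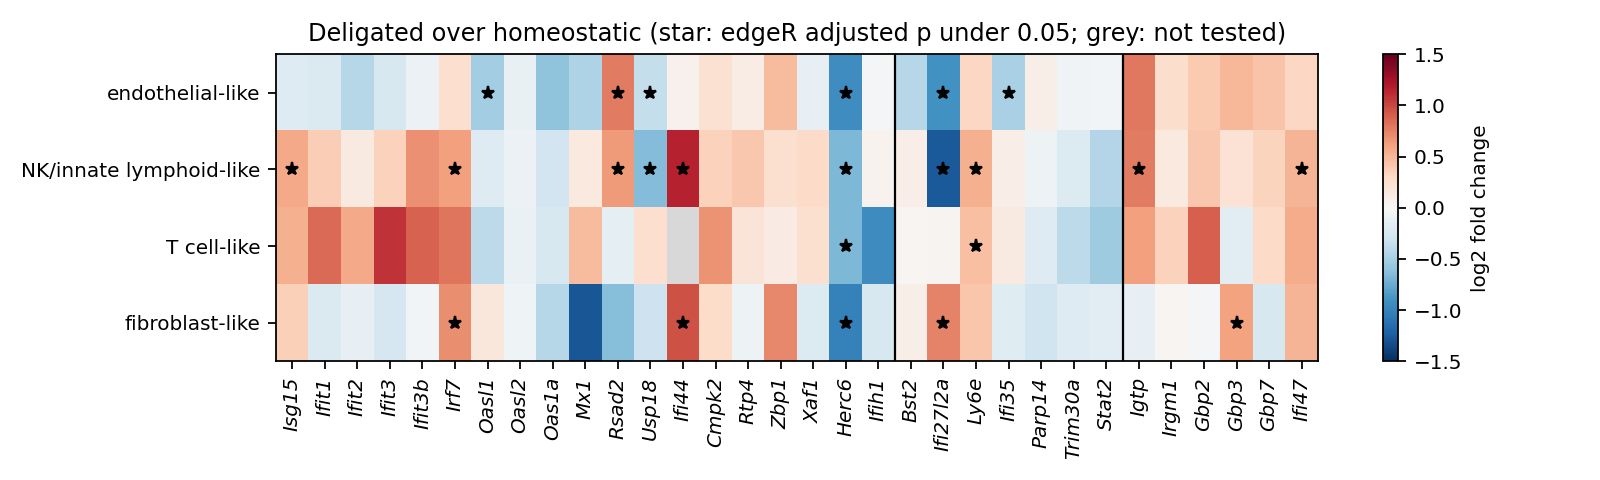
Log2 fold change, deligated over homeostatic, of each member (x axis: core, broad and gamma-type members, separated by lines) in the 4 tested classes (y axis); red is higher and blue lower in deligated libraries, and a star marks an edgeR adjusted p under 0.05. Herc6 is starred in all 4 classes and Rsad2 in endothelial-like and NK/innate lymphoid-like cells, while no gamma-type member is starred in endothelial-like cells.

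The difference between deligated and homeostatic libraries was itself compared between classes, in 1 edgeR fit of both classes with the library as a block. Against endothelial-like cells, NK/innate lymphoid-like cells had a higher difference for 4 of 32 members, where 8.1% of 14322 genes were called, 1.46% higher and 6.64% lower. These were Ifi44, Isg15, Bst2 and Ifi35. Fibroblast-like cells had a higher difference for 5 of 32, where 5.61% of 14232 genes were called, 4.19% higher and 1.42% lower. These were Ifi27l2a, Ifi44, Isg15, Bst2 and Irf7. With DESeq2's size factors the calls over all genes were 260 higher and 325 lower in place of 597 and 202, the median over all genes was 0.0080 on the log2 scale, and Isg15 (edgeR adjusted p = 0.0873) and Irf7 (0.128) did not pass. With the scaling used throughout, the median difference was 0.15 over all genes and 0.18 over the members. T cell-like cells had 0 of 32 by edgeR, where 0.321% of 13711 genes were called, 0.0948% higher and 0.226% lower, with 11 members at an unadjusted p under 0.05 (12.0% of all genes) and 0 calls by DESeq2 (0.284% of all genes). Of the 6 gamma-type members 0 passed this edgeR test in any of the 3 comparisons, with 2 at an unadjusted p under 0.05 in fibroblast-like and 0 in the other two, and 0 by DESeq2. Over all genes 19.9% had such a p in the fibroblast-like and 21.4% in the NK/innate lymphoid-like comparison, and DESeq2 called 1.15 and 2.07%. Both comparisons use the same endothelial-like sums, so they are not independent of each other.

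The ligand side was read from a list of 9 interferon genes. Ifng, the gene of interferon gamma, had 227 and 555 deligated and 306 and 366 homeostatic UMIs in NK/innate lymphoid-like cells and 264 and 467 deligated and 66 and 86 homeostatic UMIs in T cell-like cells. In endothelial-like cells it had 4 and 21 deligated and 2 and 1 homeostatic UMIs. Relative to the class totals, Ifng stood at 40.1 and 44.1 CPM in deligated against 44.6 and 50.4 CPM in homeostatic libraries in NK/innate lymphoid-like cells (log2 -0.077, SE 0.11, edgeR adjusted p = 0.601), and at 80.8 and 111 CPM in deligated against 64.6 and 90.0 CPM in homeostatic libraries in T cell-like cells (log2 0.45, SE 0.22, edgeR adjusted p = 0.204). Deligated replicate 2 had the highest Ifng level in T cell-like cells, and in NK/innate lymphoid-like cells it lay below both homeostatic libraries. Type I genes were at or near 0: Ifnb1 was counted 4 and 1 times in homeostatic and 0 times in deligated libraries, each time in macrophage-like cells, and Ifnk had 1 UMI. At this depth a count of 0 does not show that no ligand was made.

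Receptors of both pathways were present in endothelial-like cells, and 0 of 6 receptor genes passed the edgeR test there, with 2 at an unadjusted p under 0.05 (46.4% of all genes) and 0 by DESeq2 (26.2%). Ifnar1 stood at 58.0 and 55.4 CPM in deligated against 51.2 and 53.9 CPM in homeostatic libraries (log2 0.13, SE 0.092, edgeR adjusted p = 0.315), and Ifngr1 at 296 and 308 CPM in deligated against 273 and 272 CPM in homeostatic libraries (log2 0.16, SE 0.081, edgeR adjusted p = 0.162). In the NK/innate lymphoid-like, T cell-like and fibroblast-like classes, Ifnar1 had log2 fold changes of 0.19, 0.046 and 0.27 and Ifngr1 of -0.24, -0.38 and -0.10, and none of these passed (edgeR adjusted p from 0.119 to 0.891). Of 9 tested kinases and transcription factors in endothelial-like cells, Irf3 and Jak1 rose and Jak2 fell (log2 0.30, 0.32 and -0.30, edgeR adjusted p = 0.0489, 0.0489 and 0.0355), where 35.2% of all genes were called. DESeq2 called 1 of the 9, Jak1, and 26.2% of all genes. In NK/innate lymphoid-like cells the corresponding count was 3 of 10, beside 44.4% of all genes, with 2 called by DESeq2 (Irf8 and Jak2), and in the T cell-like and fibroblast-like classes 0 of 10 each, with 1 at an unadjusted p under 0.05 in each (33.3 and 37.9% of all genes) and 0 by DESeq2 in both (11.1 and 17.1%).

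Of 6 negative regulators, 4 passed in endothelial-like cells, 1 higher and 3 lower, and 6 of 6, 5 of 6 and 4 of 5 tested passed in NK/innate lymphoid-like, T cell-like and fibroblast-like cells. Over all genes 35.2% were called in the endothelial-like class, and 44.4, 18.5 and 26.1% in the other 3, in the order just given. DESeq2 called 4 of 6 in endothelial-like cells, 5 of 6 in NK/innate lymphoid-like, 2 of 6 in T cell-like (Ubash3b and Pias1) and 3 of 5 in fibroblast-like cells (these and Socs3), where it called 26.2, 29.9, 11.1 and 17.1% of all genes. Socs3, a feedback inhibitor of JAK kinases that several cytokines induce, stood at 106 and 143 CPM in deligated against 39.2 and 36.5 CPM in homeostatic libraries and rose (log2 1.74, SE 0.13, edgeR adjusted p = 0.000234). Pias1, a SUMO ligase that inhibits STAT signalling, and Ptpn2, a phosphatase of JAK and STAT proteins, fell (log2 -0.72 and -0.49, edgeR adjusted p = 0.00279 and 0.0115). Ubash3b, a phosphatase, stood at 29.1 and 28.7 CPM in deligated against 56.5 and 62.1 CPM in homeostatic libraries and fell (log2 -1.02, SE 0.097, edgeR adjusted p = 0.000636). It also fell in NK/innate lymphoid-like (log2 -1.13), T cell-like (log2 -1.22) and fibroblast-like cells (log2 -1.27), but after removal of the trend with intron length it was at log2 0.084 in NK/innate lymphoid-like and 0.035 in T cell-like cells, and no longer passed in endothelial-like (log2 -0.24) and fibroblast-like cells (log2 -0.36). The fibroblast-like value was -0.80 without homeostatic replicate 1 (edgeR adjusted p = 0.106). Socs3 also rose in NK/innate lymphoid-like (log2 1.21, SE 0.22, edgeR adjusted p = 0.00291) and T cell-like cells (log2 1.24, SE 0.30, edgeR adjusted p = 0.0279). The T cell-like call of Socs3 was lost without homeostatic replicate 1 (0.202) or 2 (0.149) and without deligated replicate 2 (0.0530), and the NK/innate lymphoid-like one with thinned sums (0.234). In fibroblast-like cells Socs3 rose (log2 0.89, SE 0.16, edgeR adjusted p = 0.00297) and Pias1, at 32.5 and 45.0 CPM in deligated against 76.7 and 79.7 CPM in homeostatic libraries, fell (log2 -0.94, SE 0.17, edgeR adjusted p = 0.00329), a call lost with the intron trend removed (log2 -0.29). Of 7 tested nucleic acid sensors, Tmem173, which encodes STING, rose in endothelial-like cells (log2 0.65, SE 0.16, edgeR adjusted p = 0.0242).

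Gamma-type targets outside the members followed no single direction. In endothelial-like cells 2 of 18 tested passed, Gbp8 and Nlrc5, and both fell, where 35.2% of all genes were called and 22.4% fell, and the median of the 18 log2 fold changes was 0.13. Gbp8 stood at 1.58 and 4.11 CPM in deligated against 70.4 and 61.4 CPM in homeostatic libraries (log2 -4.48, SE 0.28, edgeR adjusted p = 0.000119), while the members Gbp2, Gbp3 and Gbp7 of the same family had log2 fold changes of 0.39, 0.50 and 0.43. Guanylate-binding protein genes are close copies, so the split of reads among them is uncertain. Nlrc5, the activator of MHC class I genes, stood at 15.7 and 25.8 CPM in deligated against 35.0 and 35.4 CPM in homeostatic libraries (log2 -0.74, SE 0.19, edgeR adjusted p = 0.0257), and at 28.1 and 28.7 CPM in deligated against 84.9 and 84.0 CPM in homeostatic libraries in NK/innate lymphoid-like cells (log2 -1.48, SE 0.096, edgeR adjusted p = 9.57e-06). In T cell-like cells Nlrc5 stood at 42.6 and 46.2 CPM in deligated against 149.6 and 160.1 CPM in homeostatic libraries (log2 -1.66, SE 0.15, edgeR adjusted p = 0.000490). Nlrc5 did not pass in endothelial-like cells with the intron trend removed (log2 -0.31) or without homeostatic replicate 1 (0.0759) or 2 (0.0831), and the log2 fold change was -0.47 without deligated replicate 1. Irgm2, which overlaps the member Igtp, stood at 6.71 and 10.6 CPM in deligated against 23.2 and 18.03 CPM in homeostatic libraries in NK/innate lymphoid-like cells (log2 -1.09, SE 0.21, edgeR adjusted p = 0.00377) and at 9.19 and 10.00 against 27.4 and 28.2 CPM in T cell-like cells (log2 -1.39, SE 0.27, edgeR adjusted p = 0.0121). The call in T cell-like cells was lost without homeostatic replicate 1 (0.0930) or 2 (0.109), and that in NK/innate lymphoid-like cells without homeostatic replicate 1 (0.0534). Igtp itself was at log2 0.78 and 0.62 in these classes, with edgeR adjusted p of 0.0156 and 0.0961. In fibroblast-like cells Gbp8 stood at 6.50 and 5.65 CPM in deligated against 17.3 and 12.9 CPM in homeostatic libraries (log2 -1.25, SE 0.31, edgeR adjusted p = 0.0153), and Cd274, which encodes the checkpoint ligand PD-L1, at 2.10 and 6.72 CPM in deligated against 11.5 and 15.2 CPM in homeostatic libraries (log2 -1.49, SE 0.48, edgeR adjusted p = 0.0475). The Cd274 call was lost in 5 of 9 alternatives that kept all libraries, with DESeq2 among them (adjusted p = 0.0733), and without homeostatic replicate 1 (0.101) or 2 (0.232), and its log2 fold change was -2.52 without deligated replicate 2 and -0.96 without deligated replicate 1. That of Gbp8 was lost with DESeq2 (0.0822), without homeostatic replicate 1 (0.167) and with the intron trend removed (log2 -0.49). In NK/innate lymphoid-like cells 8 of 17 passed, 4 in each direction, in T cell-like cells 4 of 16, and in fibroblast-like cells 3 of 16, all lower. Over all genes 44.4, 18.5 and 26.1% were called in the same classes. DESeq2 called 7 of 17, 1 of 16 (Nlrc5) and 1 of 16 (Iigp1), beside 29.9, 11.1 and 17.1% of all genes.

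Macrophage-like, Schwann-like and mural-like cells had under 100 cells in at least 1 library and were not tested, so their levels are given as values. In macrophage-like cells Bst2 stood at 806 and 962 CPM in deligated against 1197 and 1224 CPM in homeostatic libraries, and Isg15 at 210.4 and 97.1 CPM in deligated against 147 and 157 CPM in homeostatic libraries. Schwann-like cells held Isg15 at 98.2 and 370.0 CPM in deligated against 336 and 660.0 CPM in homeostatic libraries and Ifit1 at 52.4 and 267 CPM in deligated against 279 and 319 CPM in homeostatic libraries, with deligated replicate 1 the lowest in both. Mural-like cells held Isg15 at 52.6 and 124 CPM in deligated against 87.0 and 62.0 CPM in homeostatic libraries. The summed core members in Schwann-like cells stood at 799 and 1953 CPM in deligated against 2085 and 2669.6 CPM in homeostatic libraries. They lay above the endothelial-like level given earlier only in homeostatic 2. These sums rest on 26, 63, 44 and 37 cells in the order deligated 1, deligated 2, homeostatic 1 and homeostatic 2.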

How the data were processed

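Droplet-based single-cell libraries of 4 samples (2 deligated, 2 homeostatic) were analysed from the deposited UMI counts per gene and barcode, which per the file headers were made by Cell Ranger 6.0.1 (deligated) and 7.0.0 (homeostatic); the submitters' processing notes name Cell Ranger 6.0.1, Seurat and mm10. Intron and strand counting are not given in the sources used here. The members and lists, and the rules for naming clusters, were chosen with earlier results of these data or the clusters in view. The protocols name sublingual beside submandibular glands.

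Cells with at least 300 genes and at most 10% mitochondrial UMIs were kept, simulated-doublet scores removed 0.8% per 1000 cells, and scanpy 1.11.5 clustered cells (3000 variable genes without members or pathway list, 30 components, 20 neighbours, Leiden 1.0). Clusters were named by at least 3 markers in at least 10% of cells at 2.0-fold or more; clusters led by cell cycle genes, by another class's markers or of low depth stayed unnamed (2.82 and 3.44% of deligated, 26.6 and 28.7% of homeostatic cells). Classes with at least 100 cells in every library were tested on summed counts in edgeR 4.0.16 (quasi-likelihood, TMM, filterByExpr, Benjamini-Hochberg over all genes, threshold 0.05) in R 4.3.3. In data simulated for each class, 85% (endothelial, 12860 genes), 88% (NK, 11287), 72% (T, 9405) and 75% (fibroblast, 11098) of genes changed 2-fold were recovered, and 6.09, 2.12, 6.56 and 2.79% of calls were false. Alternatives were DESeq2 1.42.0, its size factors, no filter, thinned sums, a stricter cell filter (500 genes, 5%), resolution 2.0, members kept in clustering, intron trend removed, a replicate block, and each library left out. Named with all values were the 6 largest called members a class with separated groups, further ones in endothelial-like cells (Isg15, Ifit1, Ifit3, Irf7, Stat2, Bst2, Ly6e, Ifi27l2a, Igtp, Irgm1, Gbp2), and of the pathway list of 63 genes the 4 largest called a class plus Ifng, Ifngr1 and Ifnar1; 1 further gene of that list is not reported here, and others named were chosen after their values were seen. Gene positions come from GENCODE M21 on GRCm38 (99.9% of IDs matched).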

Additional observations from a re-analysis of the deposited data

Results flagged for a closer look

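For 9 pairs of a member and a class, the deligated over homeostatic difference was not the same in endothelial-like cells and in the other class, by edgeR's test of that difference with the library as a block. Values are on the log2 scale, as the other class minus the endothelial-like class, so a higher value can come from a fall in endothelial-like cells. For NK/innate lymphoid-like cells the difference was higher by 1.05 for Ifi44 (SE 0.20, edgeR adjusted p = 0.0128), 0.72 for Isg15 (SE 0.13, edgeR adjusted p = 0.00955), 0.55 for Ifi35 (SE 0.12, edgeR adjusted p = 0.0267) and 0.49 for Bst2 (SE 0.12, edgeR adjusted p = 0.0370).

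In fibroblast-like cells it was higher by 1.81 for Ifi27l2a (SE 0.15, edgeR adjusted p = 2.07e-05), 1.04 for Ifi44 (SE 0.20, edgeR adjusted p = 0.00961), 0.70 for Isg15 (SE 0.16, edgeR adjusted p = 0.0263), 0.67 for Bst2 (SE 0.12, edgeR adjusted p = 0.00649) and 0.60 for Irf7 (SE 0.15, edgeR adjusted p = 0.0354). The median over all genes was 0.15 there. Bst2 averaged 327 CPM in deligated against 320 CPM in homeostatic libraries in fibroblast-like cells, and 107 against 108 CPM in NK/innate lymphoid-like cells. Ifi35 averaged 62.6 CPM in both groups in NK/innate lymphoid-like cells. In endothelial-like cells Bst2 averaged 661 CPM in deligated against 894 CPM in homeostatic libraries, and Ifi35 138 against 195 CPM. Ifi27l2a in fibroblast-like cells kept its call in every alternative that was run. The NK/innate lymphoid-like calls were lost without homeostatic replicate 1, with edgeR adjusted p of 0.166 for Ifi44, 0.173 for Isg15, 0.324 for Ifi35 and 0.348 for Bst2, and likewise without homeostatic replicate 2 (0.0616, 0.0951, 0.124 and 0.486). Of the fibroblast-like calls, those of Ifi44, Isg15, Bst2 and Irf7 were lost without homeostatic replicate 2 (0.170, 0.346, 0.198 and 0.242), Bst2 and Irf7 also without homeostatic replicate 1 (0.213 and 0.194), and Irf7 also without deligated replicate 1 (0.0736). The size moved too: Isg15 in fibroblast-like cells ran from 0.41 without homeostatic replicate 2 to 1.04 without homeostatic replicate 1, and Irf7 was at 0.093 with thinned sums (edgeR adjusted p = 0.974). With thinned sums Ifi44 and Isg15 in fibroblast-like cells (0.525 and 0.183) and Ifi44 and Ifi35 in NK/innate lymphoid-like cells (0.138 and 0.100) did not pass either. Ifi35 and Bst2 in NK/innate lymphoid-like cells were lost with the intron trend removed (0.0756 and 0.105). In fibroblast-like cells Isg15 and Irf7 were lost with the stricter cell filter (0.0695 and 0.0814) and with DESeq2's size factors (0.0873 and 0.128). DESeq2 called Ifi27l2a alone of the 9. The detection shares of Ifi44 and Isg15 in NK/innate lymphoid-like cells and of Ifi44 in fibroblast-like cells were not above those of epithelial-like cells in every library, and how much of these differences is free RNA was not tested. The deligated epithelial-like shares rest on only 29 and 61 cells, and that class may express these genes itself.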

How the results depend on the processing

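The counts of members called rest on 2 libraries a group. Leaving out 1 library at a time gave 3 to 24 calls for the endothelial-like class, 1 to 17 for fibroblast-like, 3 to 18 for NK/innate lymphoid-like and 0 to 11 for T cell-like cells, with the lone library assumed to vary like the other group. All genes moved with them: 13.6 to 54.99, 11.96 to 39.6, 20.4 to 55.7 and 4.79 to 23.4% were called. For the differences between classes these ranges were 0 to 15 (NK/innate lymphoid-like), 0 to 3 (T cell-like) and 1 to 10 (fibroblast-like), with 0.822 to 14.2, 0.0571 to 2.08 and 1.41 to 8.09% of all genes. No filter on low counts gave 9 calls in T cell-like and 8 in fibroblast-like cells, and 6 and 8 for their differences from endothelial-like cells (17.2, 21.5, 2.29 and 5.47% of all genes). DESeq2 gave 0 in T cell-like and 3 in fibroblast-like cells, and 0 (NK/innate lymphoid-like) and 1 (fibroblast-like) for the differences (11.1, 17.1, 2.07 and 1.15% of all genes). Thinned sums gave 5, 0 and 1 in NK/innate lymphoid-like, T cell-like and fibroblast-like cells, and 2, 1 and 2 for the differences (28.8, 11.5, 18.4, 4.19, 0.581 and 2.18% of all genes). Removal of the intron trend gave 5, 0 and 1 in these classes and 2 for the NK/innate lymphoid-like difference (32.9, 8.79, 17.4 and 3.36% of all genes). For the T cell-like difference the stricter cell filter gave 2 and resolution 2.0 gave 1 (1.66 and 0.950% of all genes). With the replicate number as a block the counts were 5, 11, 3 and 5 in endothelial-like, NK/innate lymphoid-like, T cell-like and fibroblast-like cells (31.2, 42.3, 16.2 and 24.8% of all genes). Same-numbered libraries share only a number (correlations of their deviations between -0.18 and -0.09), and the crossed pairing, added after the data were seen, gave 11 in endothelial-like cells (37.2% of all genes).

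Directions turned as follows. With the intron trend removed, Herc6 was at log2 0.0043 in NK/innate lymphoid-like and 0.021 in T cell-like cells, Irf7 at -0.0097 in NK/innate lymphoid-like and -0.28 in endothelial-like cells, and Ubash3b at 0.084 and 0.035 in NK/innate lymphoid-like and T cell-like cells. With thinned sums, Oasl1 was at 0.0052 and Stat2 at 0.020 in endothelial-like cells. Without deligated replicate 1, endothelial-like Stat2 was at 0.13, Ifit3 at 0.040, Ifit1 at 0.048, Gbp2 at 0.76, Irgm1 at 0.78 and Igtp at 1.39. Without deligated replicate 2, these values were -0.23, -0.56, -0.52, -0.079, -0.54 and -0.22. The causes were not tested. Mean carrier shares of endothelial-like cells moved with their definition: core carriers were 79.5% (deligated) and 74.1% (homeostatic) with 1 member or more, 25.1 and 22.3% with 3, 88.4 and 82.8% without thinning and 71.5 and 68.5% at 2000 UMIs, and gamma carriers 54.5 and 47.5%, 8.43 and 3.78%, 72.1 and 54.7%, and 42.9 and 33.7%. Homeostatic cells were shallower in the endothelial-like and fibroblast-like classes, which limits what can be seen of rare members there without thinning. In NK/innate lymphoid-like cells they were not shallower. Classes with under 100 cells in a library were not tested.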
